A study of Homo sapiens with 12 samples.

Results

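The genes described here are those for the tubulin folding cofactors and for the factors of tubulin autoregulation. They were chosen by gene name and comprise TBCA, TBCB, TBCC, TBCD, TBCE, TBCEL, ARL2, TTC5 and SCAPER, 9 genes that occupy 10 of the 58735 rows of the expression table because TBCE has 2 rows. The libraries measured polyadenylated RNA of HEK293T cells, an established human embryonic kidney line, in 4 groups of 3. The DMSO group received vehicle alone. The CEP group received a clickable electrophilic purine (AHL-Pu-1, a purine probe that reacts with cysteines) at 25 µM for 1 h. The 4SU group received 4-thiouridine, a photoactivatable uridine analog that cells build into RNA, at 100 µM for 16 h. The CEP+4SU group received both compounds at these doses and times. The labels carry a single protocol with UV crosslinking on ice for every library, and they give the CEP dose in mM where the design text and the methods give µM. Library depth, the sum of gene counts, ran from 16569114 to 24644734. CEP replicate 2 and CEP+4SU replicate 2 stood apart, with 22230 and 22627 genes detected against at least 24376 in each of the other 10 libraries. Of the markers of the line, VIM lay between 40.5 and 50.3 FPKM, NEFM between 32.1 and 40.9, and KRT18 between 16.6 and 20.5. PAX2 and LHX1 were low, at 0.832 to 1.46 and 0.735 to 1.35 FPKM. Of the mature kidney markers, UMOD was at 0 in all 12, and AQP2, NPHS1 and SLC34A1 reached at most 0.0773 FPKM. Of the markers of other cells, PTPRC (blood) and ALB (liver) reached at most 0.0781. GFAP (astrocyte) lay between 0.125 and 0.296, and MYOD1 (muscle) between 0.495 and 1.67, about as high as PAX2 and LHX1.

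Alpha- and beta-tubulin need help to fold and pair. After release from prefoldin and the CCT chaperonin, beta-tubulin is bound by TBCA and then TBCD, and alpha-tubulin by TBCB and then TBCE. TBCC, which activates the GTPase activity of ARL2, acts on the complex of these factors and lets the assembled heterodimer go. TBCEL is a TBCE-like protein that takes heterodimers apart. Tubulin mRNA is also under feedback control: when free tubulin is in excess, TTC5 binds the first residues of a tubulin chain that is leaving the ribosome, and the adaptor SCAPER brings the CCR4-NOT deadenylase, which leads to decay of the mRNA being translated.

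The stretch that TTC5 reads is encoded at the very start of the coding sequence, and it is shown here because it defines which mRNAs this control can reach. In the GENCODE 29 transcripts on GRCh38, the first 15 coding bases of 4 tubulin genes and of TUBG1, the gene for gamma-tubulin, were as follows, with codons 2 to 4 in capitals.
TUBA1B (chromosome 12, minus strand, start codon from 49131300): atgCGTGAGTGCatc
TUBA4A (chromosome 2, minus strand, start codon from 219253858): atgCGTGAATGCatc
TUBB (chromosome 6, plus strand, start codon from 30720507): atgAGGGAAATCgtg
TUBB2A (chromosome 6, minus strand, start codon from 3157463): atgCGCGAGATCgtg
TUBG1 (chromosome 17, plus strand, start codon from 42609738): atgCCGAGGGAAatc
Codons 2 to 4 encoded the same residues in all 9 alpha-tubulin genes, and likewise in all 9 beta-tubulin genes, where the residue at codon 4 is the only difference from the alpha form. TUBG1 has neither form. In the 9 alpha-tubulin genes only the 3 bases of the start codon lie in the first coding exon, whereas that exon holds 57 coding bases in the 9 beta-tubulin genes.

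All 9 genes were expressed, at medians that spanned 28.3-fold in FPKM as deposited. FPKM, the fragment number scaled to gene length and library size, is used for this comparison between genes. TBCA was highest, with a median of 44.1 FPKM over the 12 libraries and a range of 38.8 to 55.2. ARL2 followed at a median of 19.5 FPKM, and TBCB at 18.0. TBCC had a median of 9.81 FPKM and TBCD of 9.51. The ranges of ARL2 and TBCB overlapped, as did those of TBCC and TBCD, so the order within each of these pairs is not set by these data. TTC5 had a median of 5.04 FPKM, TBCEL of 3.27 and SCAPER of 1.75. The autoregulation factors TTC5 and SCAPER were thus below TBCA and TBCD in every library. In deposited FPKM, however, TTC5 lay above TBCEL and both TBCE rows in every library. SCAPER overlapped only with the lower TBCE row (median 1.56). The spread over all 12 libraries, treated ones included, was a coefficient of variation of 6.58% to 13.9% for the 10 rows.

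**Figure D1:**
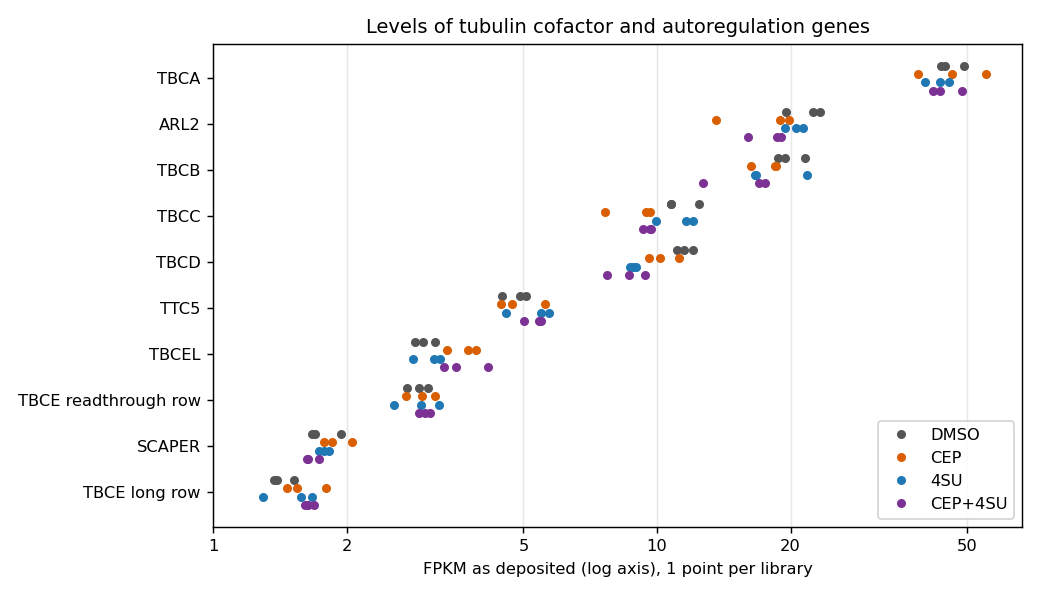
FPKM of each row (log axis), 1 point per library, in the 4 groups of 3 libraries. The genes cover a range from about 1.56 (TBCE long row, median) to 44.1 (TBCA), and the groups of a gene lie close together next to the distance between genes.

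How well each row represents its gene depends on the annotation. TBCA (ENSG00000171530, chromosome 5, 77691166 to 77868780, minus strand), TBCC (ENSG00000124659, chromosome 6, 42744481 to 42746096, minus strand) and SCAPER (ENSG00000140386, chromosome 15, 76347904 to 76905444, minus strand) share no exon base with another gene. TBCD (ENSG00000141556, chromosome 17, 82752064 to 82945922, plus strand) shares 787 of 13546 exon bases with B3GNTL1 on the opposite strand. TBCB (ENSG00000105254, chromosome 19, 36114289 to 36125947, plus strand) shares 417 of 3326 with POLR2I on the opposite strand and 194 with AD001527.2. ARL2 (ENSG00000213465, chromosome 11, 65014113 to 65022184, plus strand) shares 365 of 2084 with the readthrough gene ARL2-SNX15. That gene had 0 counts in all libraries, but only 90 of its 2392 exon bases are unshared, so this count says little about its expression. TBCEL (ENSG00000154114, chromosome 11, 121024072 to 121090775, plus strand) shares 1140 of 7020 with AP000646.1, and TTC5 (ENSG00000136319, chromosome 14, 20256558 to 20305994, minus strand) shares 740 of 9705 with AL356019.2 and 265 with AL356019.1.

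TBCE is the uncertain case. One row (ENSG00000284770, chromosome 1, 235367360 to 235452443, plus strand, called the TBCE long row here) keeps 78.7% of its 12444 exon bases unshared. The other (ENSG00000285053, 235328570 to 235448952, called the TBCE readthrough row here) keeps 26.6% of 5184, since it shares 2232 bases with the first row and 1422 with its neighbour GGPS1. Across the table, 709 of the 710 genes whose exons lie wholly within exons of the opposite strand had 0 counts in all 12 libraries, and so did 1028 of the 1139 genes wholly within exons of their own strand. Among the 41758 genes with no shared base the share was 45.1%. Fragments on shared bases thus were largely left uncounted, whatever their strand, and the deposited FPKM of a partly shared row is low. Per kilobase of unshared exon the readthrough row moved from a median of 2.94 to 11.1, the fourth place in the order.

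The question of the design is whether the purine probe, the uridine analog or both changed the transcriptome. The 2 compounds were first compared as averages, 6 libraries with a compound against 6 without, in edgeR's quasi-likelihood test over 17729 genes. With CEP, no member passed an adjusted p of 0.05, against a background of 0.276% of all genes tested. With 4SU, 1 of 10 rows passed, TBCD, against 0.558%. At an unadjusted p of at most 0.05, 4 of 10 rows passed with CEP and 1 of 10 with 4SU, against 24.3% and 12.6% of all genes. The median absolute log2 fold change of the 10 rows was 0.12 with CEP and 0.071 with 4SU, next to 0.15 and 0.10 over all genes tested. All fold changes below are log2 values from the same fit. Fewer cells of a kind and less RNA per cell cannot be told apart in bulk RNA.

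**Figure D2:**
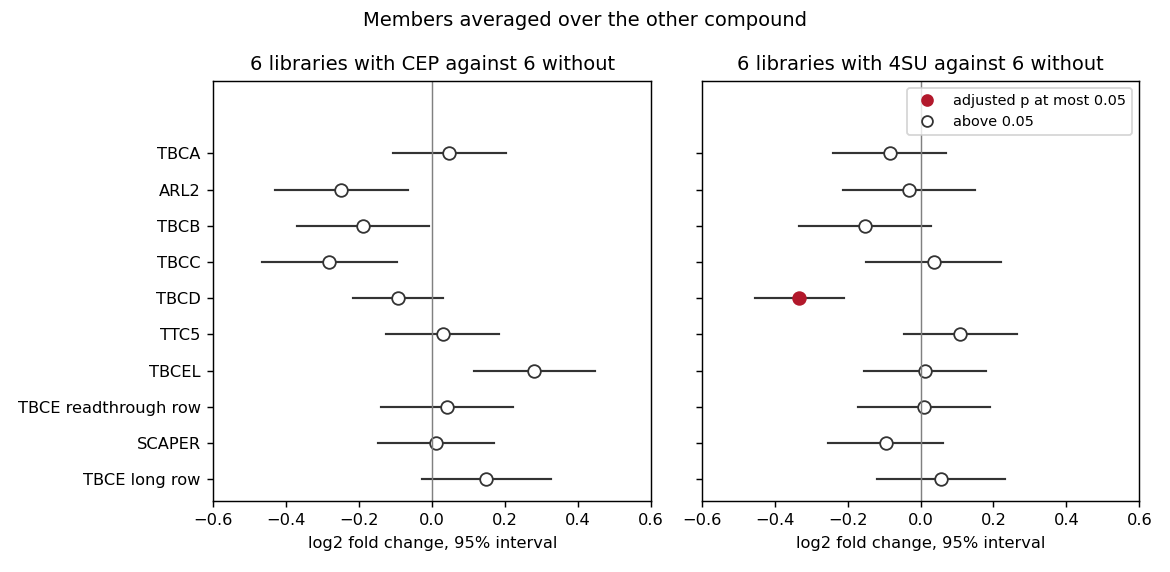
Log2 fold change with 95% interval for the 10 rows, CEP averaged over 4SU (left) and 4SU averaged over CEP (right), ordered by FPKM. TBCD with 4SU, at -0.33, is the only filled point (adjusted p at most 0.05). With CEP the intervals of TBCB, TBCC and ARL2 lie below 0 and that of TBCEL above 0, all with adjusted p above 0.05.

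TBCD, the cofactor that holds beta-tubulin in the assembly complex, was lower with 4SU. In CPM, the count scaled to a library size normalized with TMM, its DMSO libraries stood at 164, 157 and 152, and its CEP libraries at 154, 139 and 132. The 4SU libraries stood at 120.3, 118 and 122, and the CEP+4SU libraries at 118, 106 and 129. All 6 libraries with 4SU lay below all 6 without it, a separation that 1.35% of the genes tested showed for this compound. TBCD was the only one of the 10 rows to show it. Averaged over CEP, TBCD fell by 20.6% with 4SU (log2 fold change -0.33, SE 0.059, 95% interval -0.45 to -0.21, adjusted p = 0.0151 in edgeR's quasi-likelihood test). With each library's trend on GC content removed the value was -0.30 (adjusted p = 0.00030), in a fit that called 3.79% of all genes. The call was lost in several fits that called fewer genes than the 0.558% of the main fit. Leaving out DMSO replicate 1, DMSO replicate 2, 4SU replicate 2 or 4SU replicate 3 gave adjusted p of 0.0739, 0.0505, 0.0775 and 0.0723. These fits called 0.0328%, 0.142%, 0.0711% and 0.0765% of all genes. The 2 fits of limma on FPKM gave 0.0707 and 0.0716 and called 0.072% and 0.063%.

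For the other cofactors 4SU gave no call. TBCB, which receives alpha-tubulin from the chaperonin, had the next largest estimate among the cofactors (-0.15, 95% interval -0.33 to 0.029, adjusted p = 0.491). TBCA had -0.085 and an interval of -0.24 to 0.070. For TBCC, ARL2, TBCEL and both TBCE rows the estimates lay between -0.032 and 0.056, and the widest of the 10 intervals reached 0.19 to either side of its estimate. Of the autoregulation factors, TTC5 had an estimate of 0.11 (interval -0.045 to 0.26, adjusted p = 0.583) and SCAPER of -0.095 (interval -0.25 to 0.063, adjusted p = 0.659). These intervals admit changes of either sign and do not show that the levels were equal.

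**Figure D3:**
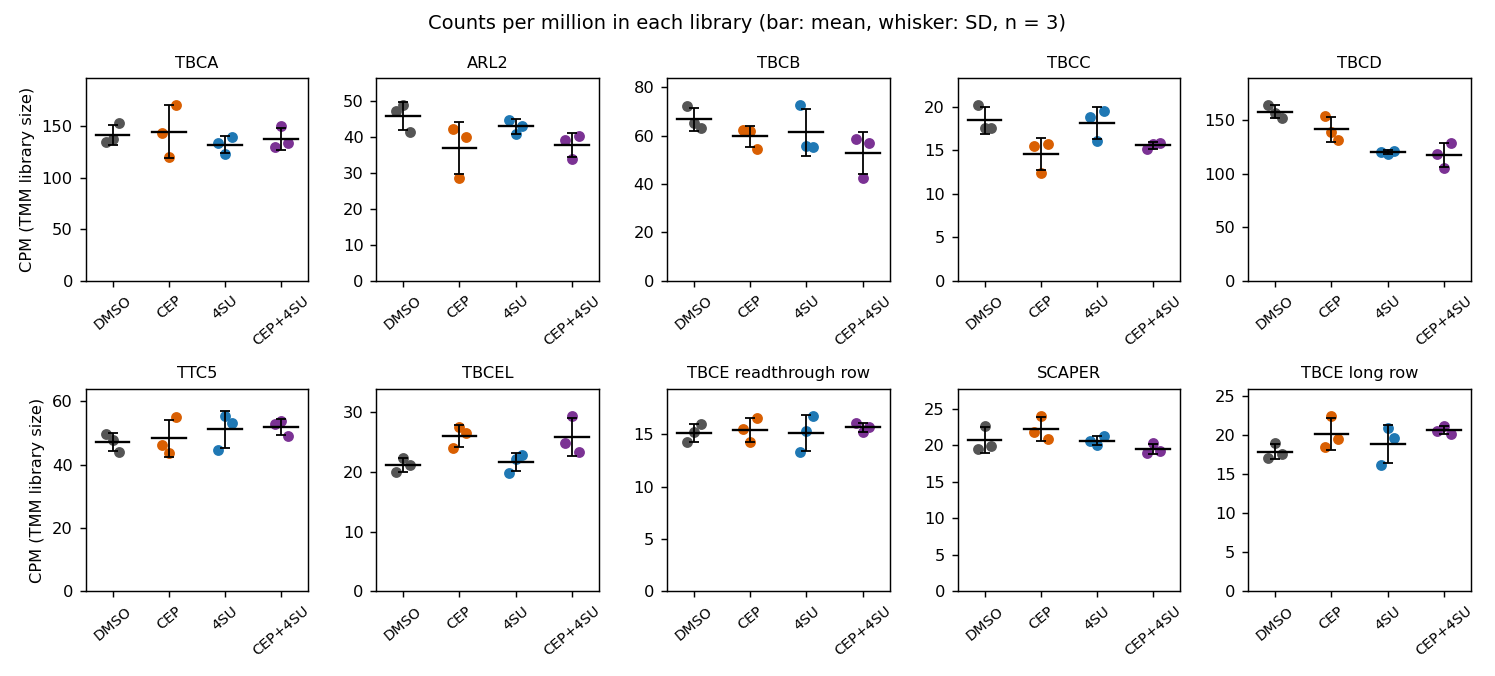
CPM of each row in every library, with the mean and SD of each group of 3. The 6 libraries with 4SU lie below the 6 without it for TBCD, the 6 with CEP lie below the others for TBCC and above them for TBCEL, and the remaining rows overlap.

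With CEP, the members that stood apart most were TBCC and TBCEL. TBCC, the factor that triggers GTP hydrolysis by ARL2, stood at 20.2, 17.5 and 17.6 CPM in DMSO and 18.9, 16.1 and 19.5 with 4SU alone. It stood at 15.5, 12.4 and 15.7 with CEP and 15.2, 15.7 and 15.8 with both compounds. All 6 libraries with CEP were below all 6 without. The log2 fold change was -0.28 (SE 0.089, 95% interval -0.47 to -0.096), and the adjusted p of 0.0872 in edgeR's quasi-likelihood test did not pass. The counts behind these values were few, 211 to 460 per library.

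TBCEL, which dissociates tubulin heterodimers, had the opposite order. Its CPM were 20.1, 22.4 and 21.1 in DMSO, 19.9, 22.2 and 22.8 with 4SU, 24.0, 27.6 and 26.6 with CEP and 24.9, 29.5 and 23.4 with both. All 6 libraries with CEP were above all 6 without, and the log2 fold change was 0.28 (SE 0.080, 95% interval 0.11 to 0.45, adjusted p = 0.0748). Such a separation of 6 from 6 was found for 2 of the 10 rows and for 1.73% of all genes tested. The counts of TBCEL were also few, 376 to 615 per library.

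ARL2, the small GTPase of the assembly complex, stood at 47.1, 48.8 and 41.3 CPM in DMSO and 44.7, 40.7 and 43.0 with 4SU. With CEP it stood at 42.0, 28.6 and 39.8, and with both compounds at 39.1, 33.8 and 40.03. The sets overlapped, and in each CEP-treated group the lowest value belonged to replicate 2, the library with few detected genes. The log2 fold change was -0.25 (SE 0.087, 95% interval -0.43 to -0.067, adjusted p = 0.103), and -0.14 (adjusted p = 0.331) without those 2 libraries. TBCB had -0.19 (interval -0.37 to -0.010, adjusted p = 0.186), with 72.2, 65.1 and 63.2 CPM in DMSO, 62.5, 62.0 and 54.7 with CEP, 72.8, 55.8 and 55.5 with 4SU, and 58.6, 42.6 and 57.0 with both.

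For the remaining members the intervals with CEP included 0. TBCD had -0.094 (interval -0.22 to 0.029, adjusted p = 0.337). TBCA had 0.047, with 3 CEP libraries that spread from 119.9 to 171 CPM around those of DMSO, 134 to 153. The TBCE long row had 0.15 (interval -0.028 to 0.32, adjusted p = 0.286), the readthrough row 0.040, and both rows added together 0.10 (adjusted p = 0.384). TTC5 had 0.029 and an interval of -0.13 to 0.18. SCAPER had 0.010 and an interval of -0.15 to 0.17, and its sign turned with the normalization, at -0.012 with upper-quartile factors.

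The CEP estimates split by base composition. The 4 members with negative estimates had GC contents of 54.3% (TBCC), 56.5% (TBCD), 60.2% (TBCB) and 60.8% (ARL2), and the other 6 rows lay between 36.8% and 46.4%. Across the genes tested, the median log2 fold change with CEP was 0.14 for the 5906 genes of lowest GC and -0.17 for the 5906 of highest GC. With the trend of each library on GC content removed, ARL2 moved to -0.071 and TBCB to -0.023. TBCC moved to -0.21 (adjusted p = 0.386) and TBCEL to 0.15 (adjusted p = 0.450), and TBCD to 0.0070. The low-GC rows TBCA, SCAPER and TTC5 moved to -0.13, -0.11 and -0.077. For 4SU the same medians were 0.024 and -0.034. Whether composition or another property of these genes sets these values was not tested.

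**Figure D4:**
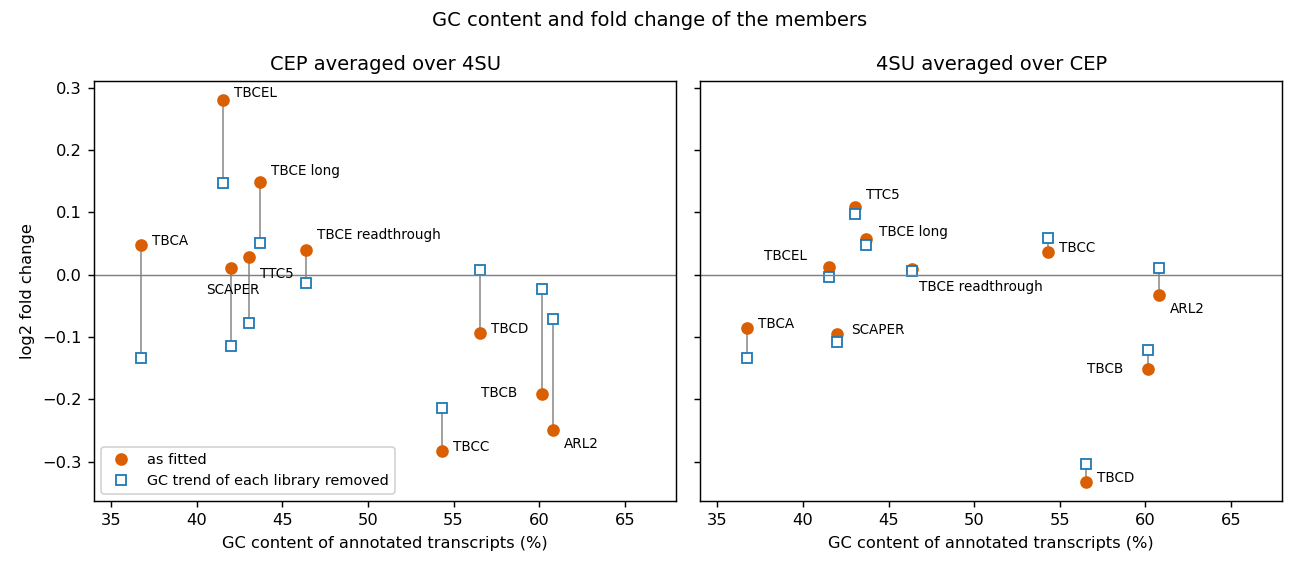
GC content of the annotated transcripts of each row against its log2 fold change, as fitted (filled) and with each library's GC trend removed (open). With CEP (left) the rows above 54% GC have negative fitted values and most values shift when the trend is removed. With 4SU (right) TBCD stays at -0.30.

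Detected genes moved with the same members. Over the 12 libraries the number of detected genes and log2 CPM had Pearson's r of 0.83 for ARL2, 0.72 for TBCC, -0.70 for TBCEL and -0.64 for the TBCE long row, but 0.12 for TBCD. These are descriptions in which each point is a library, with 2 libraries far below the rest. Without these 2, CEP averaged over 4SU gave TBCC -0.24 (adjusted p = 0.233) and TBCEL 0.20 (adjusted p = 0.238). TBCD with 4SU was -0.30 without them (adjusted p = 0.0063). Their part in the CEP values was otherwise not tested.

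Each treated group was then compared with the 3 DMSO libraries, which these comparisons share. Only CEP+4SU gave a call among the members, TBCD, against 1.64% of all genes. There TBCD fell by 25.6% (log2 fold change -0.43, SE 0.083, 95% interval -0.60 to -0.25, adjusted p = 0.0262). Without DMSO replicate 1, 2 or 3 or CEP+4SU replicate 2 the adjusted p was 0.136, 0.101, 0.0820 and 0.0947, so the call was lost. Those fits called 0.115%, 0.0767%, 0.0766% and 0.176% of all genes. Over all alternatives the log2 fold change of TBCD ran from -0.50 to -0.30. With 4SU alone the log2 fold change was -0.40 (interval -0.57 to -0.22), of similar size, with an adjusted p of 0.248. In that comparison 0 of 10 rows passed, against 0.00564% of all genes, and only 1 gene in the table did. With CEP alone TBCD had -0.16 (adjusted p = 0.312).

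In CEP against DMSO, 0 of 10 rows passed (0.0564% of all genes). At an unadjusted p of at most 0.05, 3 of 10 rows passed, next to 3289 of all 17729 genes tested. The 3 were TBCC with -0.34, ARL2 with -0.31 and TBCEL with 0.30. Their adjusted p were 0.195, 0.204 and 0.198. With the GC trend removed the 3 values were -0.26, -0.089 and 0.14, and without CEP replicate 2 ARL2 was at -0.16. In CEP+4SU against DMSO the same 3 had -0.25, -0.28 and 0.29, with adjusted p of 0.261, 0.194 and 0.146, and -0.16, -0.059 and 0.14 with the GC trend removed. Without CEP+4SU replicate 2 TBCEL was at 0.19. TBCB had -0.34 there (interval -0.60 to -0.087, adjusted p = 0.122), next to -0.16 with CEP alone (adjusted p = 0.474), and with the GC trend removed these became -0.14 and 0.050. Without CEP+4SU replicate 2 its value in CEP+4SU was -0.21. The other members in CEP+4SU were the TBCE long row with 0.21, TTC5 with 0.14, SCAPER with -0.085, the TBCE readthrough row with 0.049 and TBCA with -0.038.

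Whether CEP acted differently in the presence of 4SU was tested with the interaction term. It passed for 0 of 10 rows and for 0% of all genes in edgeR's quasi-likelihood test, with 467 genes at an unadjusted p of at most 0.05. No member was among these. The estimates ran from -0.19 for SCAPER to 0.13 for TBCD, whose interval was -0.12 to 0.37. The interval of TBCC, the widest, reached 0.37 to either side of its estimate.

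The members were set beside the other genes of tubulin folding and autoregulation. Prefoldin, which hands tubulin to the chaperonin, had 0 of 6 genes called in any of the 5 comparisons other than the interaction. With CEP its median was 0.0087, between PFDN6 at -0.20 and PFDN4 at 0.22. The CCT chaperonin, which folds tubulin, had 0 of 8 genes called and a median of 0.091, between CCT7 at -0.032 and CCT8 at 0.14. The CCR4-NOT complex, which SCAPER recruits, had 0 of 11 genes called. With CEP its median was 0.12, between CNOT3 at -0.19 and CNOT1 at 0.19, and 10 of 11 estimates were positive. Over all genes tested the median was -0.0065, with 0.14 in the third of lowest GC and -0.17 in the third of highest GC. The list values are given without removal of the GC trend.

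Partners of ARL2 and of its relative ARL3, among them effectors and GTPase-activating proteins, had 0 of 11 genes called, with ARL2BP lowest at -0.40 with CEP. The genes for free tubulin binding and tyrosination had 0 of 7 tested genes called, with STMN3 at -0.13 and STMN2 at 0.17, and STMN4 was too low to test. In all, 0 of 43 tested genes of these 5 lists passed in any of the 5 comparisons, and 13 with CEP and 3 with 4SU had an unadjusted p of at most 0.05, against the 24.3% and 12.6% of all genes given above.

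The substrates of the pathway were counted in the same way. With CEP averaged over 4SU, TUBA1C of 6 tested alpha-tubulin genes fell (-0.44), as did TUBB (-0.53), TUBB2A (-0.75), TUBB4B (-0.73) and TUBB6 (-0.47) of 8 tested beta-tubulin genes. There 0.276% of all genes were called. In CEP+4SU against DMSO (1.64% of all genes), 4 alpha-tubulin genes fell (TUBA1A, TUBA1B, TUBA1C and TUBA4A) and 5 beta-tubulin genes (TUBB, TUBB2A, TUBB2B, TUBB4A and TUBB4B). Of these, TUBB2B passed narrowly, with an adjusted p of 0.0495 in edgeR's quasi-likelihood test. In CEP against DMSO (0.0564% of all genes), 0 alpha-tubulin and 3 beta-tubulin genes fell (TUBB, TUBB2A and TUBB4B). None of either list was called with 4SU averaged over CEP (0.558% of all genes). Most estimates there were negative all the same, 5 of 6 for alpha-tubulin (median -0.20) and 6 of 8 for beta-tubulin (median -0.19). At an unadjusted p of at most 0.05, 3 of 6 and 4 of 8 passed, against 12.6% of all genes. The GC trend was not removed from these values. The difference between the tubulin genes and the members was not itself tested.

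Across the 12 libraries the members did not move as 1 group. The highest Pearson's r of log2 CPM between 2 members was 0.84, for TBCC and ARL2, followed by 0.80 for the TBCE long row and TBCEL and 0.68 for TBCB and TBCD. The lowest was -0.79, for TBCEL and ARL2. These points share libraries, depth and base composition, and no p is given.

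Among all other genes tested, the nearest to TBCD were ENO1 (r = 0.97 over 12 libraries) and ACLY (0.96). TBCB lay nearest to RNPEP (0.97) and YIF1A (0.97), and ARL2 to RNPEPL1 (0.96) and FKBP10 (0.95). TBCEL lay nearest to CLOCK (0.96) and ARID4B (0.96), and the TBCE long row to IQCH-AS1 (0.96) and VMA21 (0.94). TBCA lay nearest to RPS27L (0.93) and RPL7 (0.92), and TBCC to LINC01297 (0.91) and AC080038.1 (0.89). The TBCE readthrough row lay nearest to MED4 (0.91) and RNF175 (0.87). TTC5 had E2F6 (0.92) and MTERF1 (0.90), and SCAPER, the member with the least close neighbours, had TANGO6 (0.87) and TAL1 (0.87). With 17719 genes compared, high values arise readily over 12 points.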

How the data were processed

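The 12 libraries were grouped by the treatment in their labels. The counts were made by the authors with HISAT2 2.0.5 on GRCh38 and featureCounts 1.5.0-p3 and are deposited as whole numbers per gene. The FPKM values were computed by the authors from these counts and gene length. The deposited group means of FPKM were not used. Gene models were those of GENCODE 29, which holds all 58735 identifiers.

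Counts were filtered with filterByExpr (minimum count 10, minimum total 15), normalized with TMM and fitted for all 4 groups in edgeR 4.0.16 (R 4.3.3) by quasi-likelihood, with Benjamini-Hochberg adjustment over 17729 genes at 0.05 and 6 comparisons. Totals of 16569114 to 24644734 counts give the depth. The common biological coefficient of variation was 0.114. The labels do not say that replicates were separate cultures (the design text calls them independent), so p-values measure the spread between these libraries. Intervals are 95% intervals of the fit. GC content was taken over all annotated transcripts of a gene, and its trend was removed by loess of each library's log2 CPM deviations (span 0.5).

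The text names every member, list genes that pass (with CEP, 4SU averaged, or both compounds), for lists without calls the lowest and highest gene with CEP, genes that share exon bases with a member, and the 2 genes most like each member. The text leaves out 1 list gene that meets this rule, which the list counts and medians still include. The members and lists were chosen with earlier results of these data known. Alternatives were DESeq2 1.42.0, limma 3.58.1 on log2(FPKM + 1) or log2(FPKM + 0.1), other normalizations and filters, trend removal on GC or length, overlapping rows added, a replicate block, the libraries of 2 groups alone and each library left out. Leaving out the 2 libraries with the fewest detected genes was chosen after seeing the data. The edgeR fit was tested on simulated data. Isoforms need the reads and were not analysed here.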

Additional observations from a re-analysis of the deposited data

Results flagged for a closer look

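SCAPER was marked because its 3 CEP libraries all lay above the DMSO mean while its 3 CEP+4SU libraries all lay below the 4SU mean. Its CPM were 19.5, 22.7 and 19.9 in DMSO, 21.8, 24.1 and 20.9 with CEP, 20.7, 20.1 and 21.2 with 4SU, and 19.0, 20.3 and 19.2 with both compounds. The interaction of CEP with 4SU was -0.19 on the log2 scale (95% interval -0.50 to 0.13, adjusted p = 1.00 in edgeR's quasi-likelihood test), so the difference did not pass. Over the alternatives this value ran from -0.27 to -0.12, and none of them passed.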

How the results depend on the processing

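TBCD with 4SU averaged over CEP kept its direction in 24 of 24 alternatives (log2 -0.36 to -0.29) and was called in 18, with adjusted p from 5.72e-05 to 0.0775. In CEP+4SU against DMSO it was called in 13 of 19 (-0.50 to -0.30). The number of members called changed as follows. In 4SU against DMSO it was 1 (TBCD) with DESeq2, without the low-count filter and with only the libraries of the 2 groups. It was also 1 with the GC trend removed and without the 2 libraries of fewest detected genes. These fits called 0.0846% to 0.557% of the genes they gave an adjusted p, which with DESeq2 were 4939. With CEP averaged over 4SU it was 3 with DESeq2 (TBCC, TBCEL and ARL2), which called 15.6% of the 9610 genes it gave an adjusted p. It was 1 without the low-count filter (ARL2), with 4.06% of the 35634 genes tested there. In CEP+4SU against DMSO it was 2 without the filter (TBCB and TBCD, with 3.46% of all genes). There it was 0 with either limma fit on FPKM, which called 0.045% and 0.108% of all genes. With 4SU averaged over CEP it was 0 with either limma fit, which called 0.072% and 0.063%. Leaving out 1 library gave 0 to 1 members in CEP+4SU against DMSO, in fits that called 0.0766% to 4.42% of all genes. It gave 0 to 1 with 4SU averaged over CEP (0.0328% to 0.687% of all genes). With CEP averaged over 4SU it gave 0 to 3 (0.115% to 11.8% of all genes). The 3 were TBCC, TBCEL and ARL2 without CEP replicate 1, where 11.8% of all genes were called. The causes of these changes were not tested.

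Whether replicate numbers pair the samples was not settled. Of 18 correlations of deviations between same-numbered libraries, 1 exceeded 0.1 (range -0.047 to 0.14). A library correlated best with its own number in 16 of 36 cases. With the replicate number as a block, 3 members were called with CEP averaged over 4SU (TBCC, TBCEL and ARL2). That fit called 12.8% of all genes, against 0.276% without the block. In CEP+4SU against DMSO 2 members were called (TBCB and TBCD), with 9.4% of all genes against 1.64% without the block.

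These estimates changed sign. With CEP averaged over 4SU, SCAPER was -0.012 with upper-quartile factors, -0.0024 with library size alone, -0.00087 with at least 10 counts in every library, -0.11 with the GC trend removed, -0.055 with the length trend removed and -0.038 without the 2 libraries of fewest detected genes. Removal of the GC trend gave -0.13 for TBCA, 0.0070 for TBCD, -0.014 for the TBCE readthrough row and -0.077 for TTC5, and of the length trend -0.025 for TTC5. With 4SU averaged over CEP, ARL2 was 0.013 with library size alone and 0.011 with the GC trend removed, and TBCEL -0.0039 with the latter. Without the 2 libraries of fewest detected genes, TBCC was -0.012, the TBCE readthrough row -0.0026 and TBCEL -0.013. The GC trend removed, TBCB was 0.050 in CEP against DMSO and the TBCE readthrough row -0.0071 in CEP+4SU against DMSO, where TBCA was 0.020 with the length trend removed. Leaving out 1 library gave, with CEP averaged over 4SU, -0.022 to 0.046 for SCAPER, -0.023 to 0.10 for TBCA, -0.029 to 0.060 for TTC5 and -0.016 to 0.068 for the TBCE readthrough row. With 4SU averaged over CEP it gave -0.027 to 0.056 for the TBCE readthrough row, -0.037 to 0.051 for TBCEL, -0.10 to 0.020 for ARL2 and -0.0083 to 0.083 for TBCC, and in CEP+4SU against DMSO -0.10 to 0.021 for TBCA. TBCC rests on 211 to 460 counts per library and had the largest SE of the 10 rows with CEP averaged over 4SU (0.089). Counts were also few for the TBCE readthrough row (242 to 385), the TBCE long row (306 to 442), SCAPER (341 to 481) and TBCEL (376 to 615). Their SE were not all larger than those of rows with more counts, at 0.076 for SCAPER next to 0.086 for TBCB.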
